A study of Homo sapiens with 10 samples.

Results

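The binding sites of STAT3 and of the NF-κB subunit NFKB1 were compared in transformed ER-Src cells, using 1 ChIP-seq peak list per protein. Every deposited peak on chromosomes 1 to 22 and X was taken as a site, represented by its summit, the position with the highest pileup of reads. This gave 80265 STAT3 sites and 73822 NFKB1 sites, which are 154087 of the 879550 peaks in the 10 lists of the series. A site was called shared when a summit of the other protein lay within 300 bp, and STAT3-only or NFKB1-only when none did. Where each summit was the nearest one of the other, the peaks formed a pair. There were 44890 such pairs.

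ER-Src cells (MCF10A-ER-Src) are an established breast epithelial line that carries an inducible form of the Src oncoprotein. The transformed cells were treated with 1 µM 4-hydroxy-tamoxifen for 12 h, and the non-transformed cells of the same line were treated with ethanol. In each condition 1 library was made for each of 5 proteins, STAT3, NFKB1, FOS, JUN, and JUNB, so no value below has a replicate check. All intervals describe sampling of sites or counting of reads within a library, not the spread between cultures. The STAT3 and NFKB1 libraries of transformed cells were of similar depth, with 8967267 and 9674390 reads after the authors' filter, so the NFKB1 library was 1.08 times as deep. The strength of a site is its pileup in reads, or that pileup divided by the filtered reads of its library and multiplied by 1000000 (RPM). The weakest peaks of both lists had 4 reads.

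STAT3 is a latent transcription factor that is phosphorylated downstream of IL-6 family receptors and of Src, and then enters the nucleus and binds DNA as a dimer. NFKB1 encodes p105 and its processed product p50, a DNA binding subunit of NF-κB that is kept in the cytoplasm by inhibitory proteins until inflammatory signals release it. FOS, JUN, and JUNB belong to the AP-1 family, whose members bind DNA as dimers and occupy many enhancers of epithelial cells. STAT3 and NF-κB recognize different DNA motifs, and their pathways are linked through cytokines such as IL-6, which NF-κB induces and which activates STAT3.

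In transformed cells most sites of each protein were shared. Of all STAT3 sites 57.1% (45799 of 80265, Wilson 95% interval 56.7 to 57.4%) had an NFKB1 summit within 300 bp, and of all NFKB1 sites 62.1% (45858 of 73822, 61.8 to 62.5%) had a STAT3 summit. This left 34466 STAT3-only and 27964 NFKB1-only sites. Peaks were called without a control library, and the part of background common to the libraries in these shares, or in those for AP-1 below, was not tested. A small part of the one-protein sites lay close to the other protein. The nearest NFKB1 summit was over 300 and up to 1000 bp away for 18.1% of STAT3-only sites (17.7 to 18.5%), and the nearest STAT3 summit for 17.1% of NFKB1-only sites (16.7 to 17.5%). Over 10000 bp separated 13530 STAT3-only sites from the nearest NFKB1 summit up to a distance of 100000 bp, and 1121 lay farther than that. Few one-protein sites were broad peaks with separate summits. The deposited intervals still overlapped at 1.64% of STAT3-only sites (1.51 to 1.78%) and 3.56% of NFKB1-only sites (3.35 to 3.78%).

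The chosen distance fell where few summits changed sides. NFKB1 summits were densest within 50 bp of a STAT3 summit, at 38.3 per 100 STAT3 sites and 100 bp of sequence. The density was 11.2 from 50 to 100 bp, 3.02 from 100 to 200 bp, and 1.55 from 200 to 300 bp. Beyond the limit it stayed near that level, at 1.92 from 300 to 400 bp and 1.56 from 500 to 1000 bp, and reached 0.589 from 5000 to 10000 bp. Just inside the limit 745 STAT3 sites had their nearest NFKB1 summit 251 to 300 bp away, and just outside it 739 had theirs at 301 to 350 bp.

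Shared sites were stronger and longer than sites of one protein. The median STAT3 pileup was 1.56 RPM at shared sites (14 reads, quartiles 9 to 27) and 0.892 RPM at STAT3-only sites (8 reads, quartiles 7 to 13). For NFKB1 the medians were 1.03 RPM (10 reads, quartiles 8 to 16) and 0.724 RPM (7 reads, quartiles 6 to 10). The distributions overlapped widely, and the strongest STAT3-only site had 124 reads against 143 for the strongest shared one. Median peak length was 249 bp at shared and 159 bp at STAT3-only sites, and 218 bp at shared and 147 bp at NFKB1-only sites.

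The share of common sites rose with strength in both lists. In the weakest of 5 bins by pileup, 33.1% of STAT3 sites (4 to 6 reads, 32.3 to 33.9%) were shared, and in the strongest bin 84.8% (24 to 143 reads, 84.3 to 85.4%) were. The same shares for NFKB1 were 39.0% (4 to 6 reads, 38.3 to 39.8%) and 83.2% (16 to 144 reads, 82.6 to 83.8%). Among the 817 strongest STAT3 sites, at or above percentile 99, 97.7% were shared (96.4 to 98.5%), as were 95.4% of the 743 strongest NFKB1 sites (93.7 to 96.7%). A peak near the detection limit of its own list was thus less often matched, and a site without a peak in the other list has no pileup value there, so its level for the other protein was not measured.

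**Figure D1:**
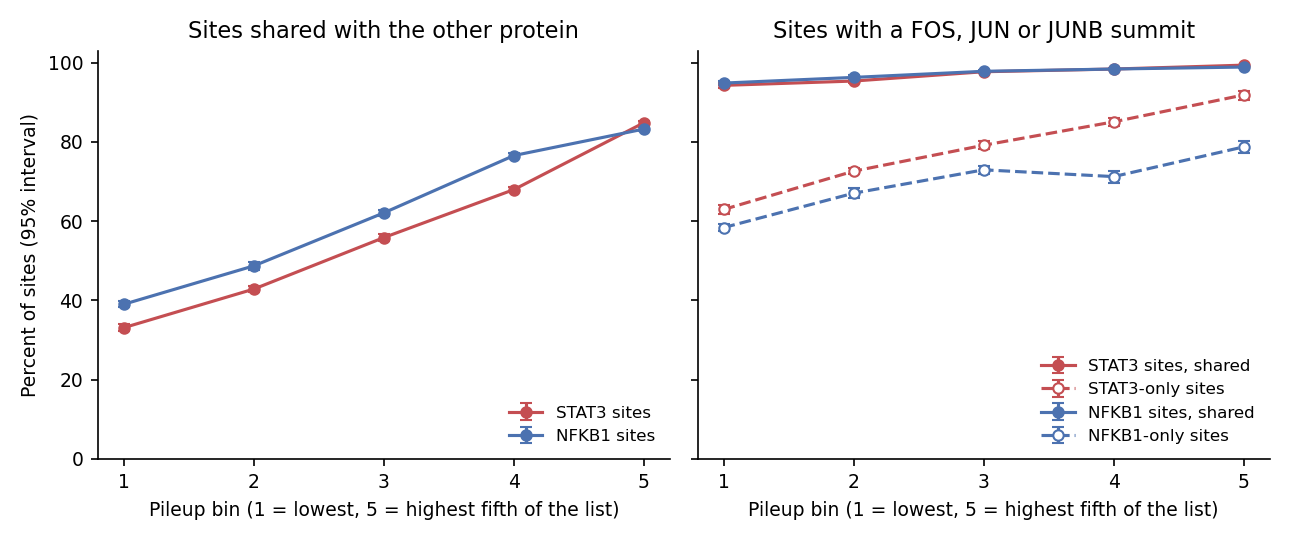
Sites of the STAT3 and NFKB1 lists of transformed cells in 5 bins of pileup (x axis, bins uneven because pileups are tied). The left panel gives the percent shared with the other protein and the right panel the percent with a FOS, JUN, or JUNB summit within 300 bp, for shared (solid) and one-protein sites (dashed), with Wilson 95% intervals. The share of common sites rises from 33.1 to 84.8% for STAT3 and from 39.0 to 83.2% for NFKB1, and the solid AP-1 lines lie above the dashed ones in every bin.

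AP-1 proteins were present at almost every shared site and at a smaller share of one-protein sites, a feature the matching did not use. In transformed cells a FOS, JUN, or JUNB summit lay within 300 bp of 97.6% of shared STAT3 sites (97.4 to 97.7%), of 74.7% of STAT3-only sites (74.3 to 75.2%), and of 67.0% of NFKB1-only sites (66.5 to 67.6%). Over all sites AP-1 was at 87.8% of the STAT3 and 86.1% of the NFKB1 list, so most sites of either list had it. All 3 AP-1 proteins were found together at 80.1% of shared STAT3 sites, 34.6% of STAT3-only sites, and 29.5% of NFKB1-only sites. Over all STAT3 and all NFKB1 sites these shares were 60.6 and 61.1%. Because weak sites matched other lists less often, the comparison was also made within bins of pileup. In the strongest bin 99.4% of shared (99.2 to 99.5%) and 91.8% of STAT3-only sites (90.7 to 92.9%) had AP-1. For NFKB1 the corresponding shares were 98.9% (98.7 to 99.1%) and 78.7% (77.1 to 80.3%). The gap between shared and one-protein sites was thus present among strong sites as well, and was wider for NFKB1.

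The 3 AP-1 proteins differed in their share of one-protein sites. FOS, from the deepest library, marked 94.1% of shared STAT3 sites, 67.2% of STAT3-only sites, and 55.5% of NFKB1-only sites. JUN marked 92.2, 51.6, and 52.3% of them, respectively, and JUNB marked 83.7, 43.4, and 36.3%. The share at STAT3-only sites was thus above that at NFKB1-only sites for FOS and JUNB but not for JUN. With only the 20000 strongest peaks of each list, AP-1 as a whole was at 36.2% of STAT3-only and 39.2% of NFKB1-only sites, the opposite order. The AP-1 libraries of transformed cells held 22082403 (FOS), 18454386 (JUN), and 15750765 (JUNB) reads, and how much of the order among them comes from depth was not tested.

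The classes also differed in the non-transformed cells. An AP-1 summit was already present there at 90.1% of shared STAT3 sites (89.8 to 90.4%), against 52.3% of STAT3-only sites (51.8 to 52.8%) and 52.8% of NFKB1-only sites (52.2 to 53.4%). Over all STAT3 and all NFKB1 sites the shares were 73.9 and 76.0%. STAT3 had a summit before transformation at 52.5% of shared and 19.6% of STAT3-only sites. NFKB1 had one at 20.6% of shared NFKB1 sites and 8.97% of NFKB1-only sites. Of the NFKB1-only sites 10.4% (2903 of 27964) carried a STAT3 summit in non-transformed cells only, whereas 1.38% of STAT3-only sites (477 of 34466) carried NFKB1 there only. The non-transformed NFKB1 library was shallow, with 4837474 reads and 13252 sites, against 10929003 reads and 42810 sites for STAT3, so the shares of the 2 proteins are not on an equal footing. At 11.7% of shared STAT3 sites a summit was found in all 10 lists, and 19.8% of STAT3-only and 27.4% of NFKB1-only sites had no summit in any other list.

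At the pairs the levels of the proteins were loosely related. Across the 44890 pairs Spearman's correlation of pileup (RPM) was 0.383 and Pearson's r of the log2 values was 0.381. All pairs come from the same pair of libraries and both levels are read at the same positions, so the values describe these lists. Among the 5106 pairs with 20 or more reads in both lists, a choice that narrows the range, the correlation was 0.068. With only the 20000 strongest peaks of each list it was 0.129. Over all peaks the correlation was 0.390 where all 3 AP-1 proteins were present (n = 36162) and 0.192 where none was (n = 1036). The pairs found in all 10 lists had a correlation of 0.425 (n = 5277), and the others 0.317 (n = 39613). With summits within 30 bp it was 0.366 (n = 22823), and with summits over 100 bp apart 0.472 (n = 5132). The range of levels was not matched between these groups of pairs.

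The level of STAT3 was on average higher than that of NFKB1. The median ratio of STAT3 to NFKB1 pileup (RPM) was 1.44 (5th to 95th percentile 0.452 to 5.21), and STAT3 was the higher at 70.9% of pairs. On the log2 scale the ratio had an SD of 1.06, against 0.60 from the counting of reads alone. In 17.6% of pairs (7915) the exact 95% interval of the ratio lay above the median ratio, and in 10.3% (4639) below it. The antibodies differ between the libraries, so the ratio orders sites and does not compare amounts of bound protein.

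The other protein pairs in transformed cells were set beside STAT3 and NFKB1 in the same way. FOS, JUN, and JUNB were at 82.5, 74.7, and 66.4% of STAT3 sites and at 79.5, 77.2, and 65.8% of NFKB1 sites. All were above the 57.1% of STAT3 sites with NFKB1 and the 62.1% of NFKB1 sites with STAT3. Conversely, 40.4, 47.1, and 52.3% of FOS, JUN, and JUNB sites were shared with STAT3, and 35.7, 44.8, and 47.7% with NFKB1. The AP-1 lists were longer, and the part of list length was not tested. The Spearman correlation was 0.432 for STAT3 and FOS, 0.383 for STAT3 and JUN, and 0.343 for STAT3 and JUNB. For NFKB1 it was 0.403 with FOS, 0.432 with JUN, and 0.362 with JUNB. The AP-1 proteins were closer to each other, with values from 0.735 for FOS and JUN to 0.857 for FOS and JUNB. In these lists the level of STAT3 therefore followed that of NFKB1 about as closely as that of the AP-1 proteins. These comparisons share libraries and were not tested.

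**Figure D2:**
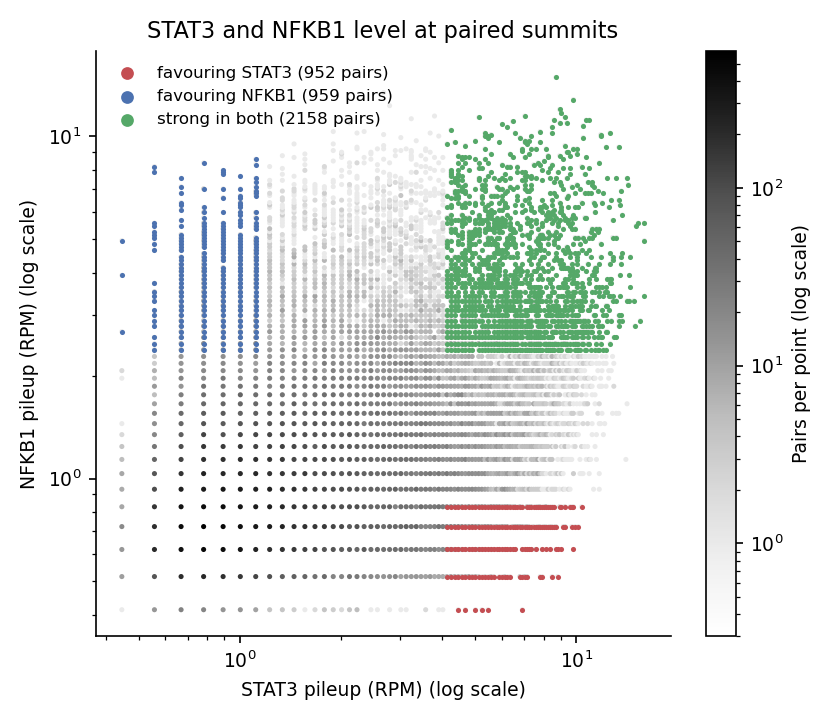
Pileup (RPM) of the STAT3 peak (x axis, log scale) and of the NFKB1 peak (y axis, log scale) at the 44890 pairs, with grey shade giving the number of pairs at a point. Colors mark the 952 pairs favouring STAT3, the 959 favouring NFKB1, and the 2158 with both peaks in the top 10% of their lists, and the cloud has only a shallow slope (Spearman's correlation 0.383).

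The summits of a pair lay close together. The median distance was 30 bp (95% interval 29 to 30 bp, quartiles 12 to 60 bp), 69.2% of pairs were within 50 bp, and 11.4% were over 100 bp apart. The NFKB1 summit had the higher coordinate in 48.9% of pairs and the same coordinate in 1.44%. Sites were not oriented by motif or gene, so these shares cannot show whether a side was preferred. The median distance was slightly larger than the 25 to 27 bp that separated STAT3 or NFKB1 from FOS, JUN, or JUNB. The AP-1 proteins lay 17 to 18 bp from each other.

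The distance varied with strength and with AP-1. It was 25 bp (23 to 27 bp) where both peaks were in the top 10% of their lists and 41 bp (40 to 42 bp) where both were in the lower 50%. Pairs with all 3 AP-1 proteins had a median of 28 bp (28 to 29 bp), and pairs without AP-1 had 40.5 bp (36 to 44 bp). The median was 39 bp (37 to 42 bp) at pairs of 400 bp or more in both lists and 28 bp (27 to 29 bp) at pairs under 200 bp in both. Distance did not follow length across the kinds of pairs. The median STAT3 peak was 527 bp long where both peaks were strong and 154 bp where both were in the lower 50%. For NFKB1 these lengths were 448 and 145 bp, and the part of length was not tested. At the 41979 pairs that shared a FOS summit, that summit was 24 bp from STAT3 and 25 bp from NFKB1 at the median. It lay nearer to STAT3 in 49.7% and nearer to NFKB1 in 48.1% of them, and between the other summits in 39.2%.

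**Figure D3:**
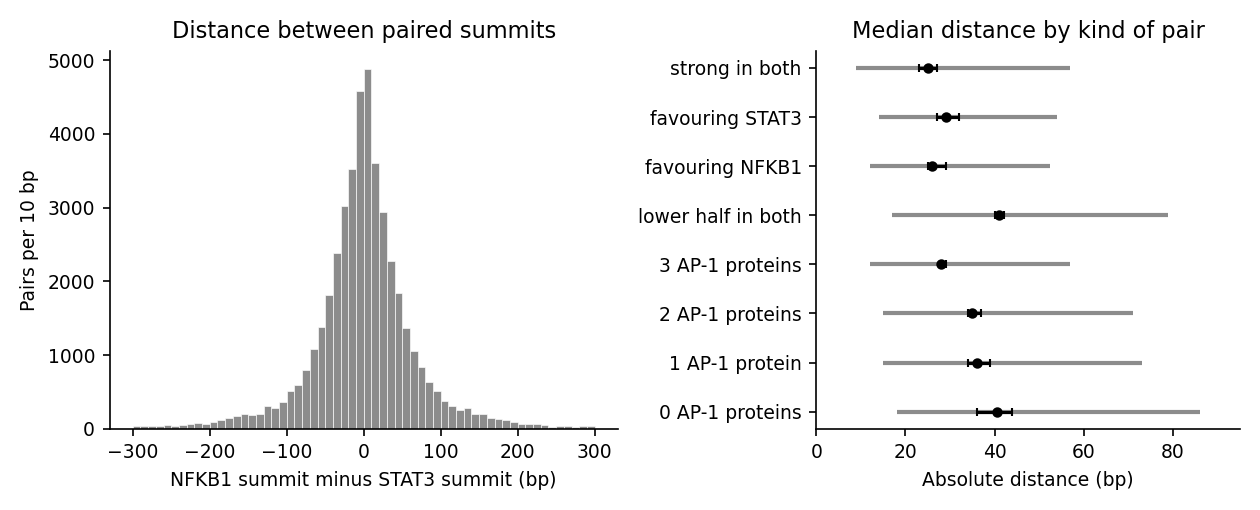
The left panel counts pairs by the position of the NFKB1 summit relative to the STAT3 summit (bp, bins of 10 bp). The right panel gives the median absolute distance (points, with 95% intervals) and the quartiles (bars) for kinds of pairs, from 25 bp where both peaks are strong to 41 bp where both are in the lower 50% of their lists.

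Pairs that strongly favoured one protein were picked by rank within each list. A pair favoured STAT3 when its STAT3 peak was in the top 10% by pileup and its NFKB1 peak in the lower 50%, and the reverse defined pairs favouring NFKB1. These limits fell between 36 and 37 reads and between 10 and 11 reads in the STAT3 list, and between 22 and 23 reads and between 8 and 9 reads in the NFKB1 list. By this rule 952 pairs favoured STAT3 (2.12% of pairs) and 959 favoured NFKB1 (2.14%), and 2158 were in the top 10% of both lists. The median levels were 5.13 (STAT3) and 0.724 (NFKB1) RPM in the pairs favouring STAT3, and 0.892 and 3.31 RPM in the pairs favouring NFKB1. The rule fixes these differences, and they are given as a description. With only the 20000 strongest peaks of each list the counts were 493 and 421, and with a stricter q-value threshold 989 and 601.

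The pairs of opposite preference had different states before transformation, in libraries that the rule did not use. STAT3 already had a summit in non-transformed cells at 73.9% of the pairs favouring STAT3 (704 of 952, 71.1 to 76.6%), but at 24.3% of those favouring NFKB1 (233 of 959, 21.7 to 27.1%). NFKB1 already had a summit at 2.63% of the pairs favouring STAT3 (25 of 952, 1.78 to 3.85%), but at 73.6% of those favouring NFKB1 (706 of 959, 70.7 to 76.3%). Over all pairs these shares were 52.6% for STAT3 and 20.8% for NFKB1. Where both peaks were strong they were 91.7% (90.5 to 92.8%) and 69.5% (67.5 to 71.4%), and where both were in the lower 50% they were 27.3 and 4.29%. Each protein was thus often found in advance where its own level was high in transformed cells and seldom where it was low, whichever protein the pair favoured. When positions found in all 10 lists were left out before ranking, prior STAT3 was at 72.1% of the pairs favouring STAT3 and 14.6% of those favouring NFKB1, and prior NFKB1 at 1.25 and 63.7%, respectively.

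Prior binding varied with the level of the other protein for STAT3 more than for NFKB1. Among pairs with a strong NFKB1 peak, NFKB1 had a summit before transformation in 73.5% where STAT3 was in the weakest of 5 bins (n = 181, 66.6 to 79.4%) and in 70.2% where it was in the strongest (n = 3398, 68.7 to 71.7%). In all 5 bins the share lay between 70.2 and 74.3%. Among pairs with a strong STAT3 peak, the share with STAT3 before transformation went from 73.6% (n = 292, 68.3 to 78.4%) in the weakest NFKB1 bin to 91.3% (n = 3807, 90.4 to 92.2%) in the strongest. Prior NFKB1 was therefore as frequent at strong NFKB1 peaks with little as with much STAT3, whereas prior STAT3 rose with the level of NFKB1. Strength varies within the top 10%, and this was not matched between bins. The non-transformed libraries also differed in depth, with 4837474 reads for NFKB1 and 10929003 for STAT3, and the part of depth in the contrast was not tested.

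**Figure D4:**
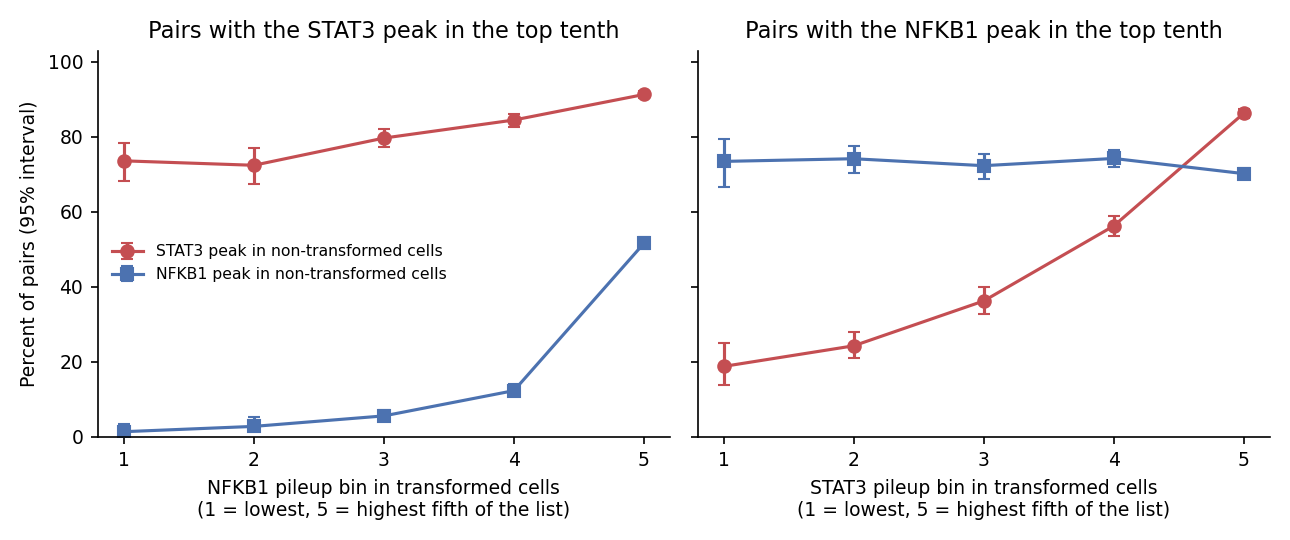
Percent of pairs with a STAT3 (red circles) or NFKB1 (blue squares) summit in non-transformed cells, with Wilson 95% intervals, for pairs with a STAT3 peak (left) or an NFKB1 peak (right) in the top 10% of its list of transformed cells. The x axis gives the bin of the other protein in transformed cells. On the right prior NFKB1 stays between 70.2 and 74.3%, and on the left prior NFKB1 goes from 1.37 to 51.6%.

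The order of the proteins at a site was related between the conditions. At the 6993 pairs with both proteins also present in non-transformed cells, the ratio of STAT3 to NFKB1 pileup (RPM) had a Spearman correlation of 0.726 between non-transformed and transformed cells. For the difference of within-list percentiles it was 0.539. The same antibodies and genome positions underlie both ratios, and the part of antibody background and of copy number in this value was not tested.

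AP-1 was at nearly all pairs of either preference, as it was over all pairs, so its presence could differ little between them. An AP-1 summit was found at 99.1% of pairs favouring STAT3 (98.2 to 99.5%) and 96.8% of pairs favouring NFKB1 (95.4 to 97.7%). JUNB was present at 86.3% (84.0 to 88.4%) and 77.1% (74.3 to 79.6%), and JUN at 92.6% (90.8 to 94.1%) and 88.9% (86.8 to 90.8%), respectively. FOS was found at 96.2 and 93.6% of them. Over all pairs the shares were 97.7% for AP-1, 84.0% for JUNB, 92.4% for JUN, and 94.3% for FOS. Pairs favouring NFKB1 were below these for JUNB and JUN, and the other shares were close to them. All 3 AP-1 proteins together were at 81.6% of pairs favouring STAT3, 73.5% of those favouring NFKB1, and 80.6% of all pairs. JUNB was at 97.7% of the pairs strong in both. AP-1 had been present in non-transformed cells at 82.9% (80.4 to 85.1%) of pairs favouring STAT3 and 82.2% (79.6 to 84.5%) of pairs favouring NFKB1. Both shares were below the 90.2% of all pairs (89.9 to 90.5%) and the 97.5% of pairs strong in both. They were also below the 85.5% (84.7 to 86.3%) of pairs in the lower 50% of both lists, by less. Where FOS was present its median pileup was 1.81 RPM in pairs favouring STAT3, 1.40 RPM in those favouring NFKB1, and 3.08 RPM in pairs strong in both. The medians were 1.03, 0.975, and 2.22 RPM for JUN and 1.40, 1.27, and 2.92 RPM for JUNB, so pairs strong in both had the highest AP-1 levels. Across all pairs the medians were 1.86 RPM for FOS, 1.30 RPM for JUN, and 1.71 RPM for JUNB, above those of pairs favouring either protein.

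The named examples follow a rule on rank, and their positions are in genome build hg19. For a pair, the interval given is that of its STAT3 peak. The 6 pairs with the largest difference of percentile in favour of STAT3 had 49 to 79 STAT3 reads and 4 or 5 NFKB1 reads, and the ratio of the RPM values was 13.2 to 17.0. The pair at chr1:114326620-114326996 had 79 STAT3 and 5 NFKB1 reads (ratio 17.0, exact 95% interval 7.0 to 53.9), with FOS at 2.58 and JUN at 1.30 RPM, and no summit of any of the 5 proteins in non-transformed cells. The pair at chr22:29138304-29138754 had 70 STAT3 and 5 NFKB1 reads (ratio 15.1, 6.17 to 48.0), and STAT3 was at 7.81 RPM in transformed and 7.69 RPM in non-transformed cells. These examples show that a high STAT3 level with little NFKB1 occurred both at positions without and at positions with a STAT3 summit before transformation. The pairs at chr16:53119250-53119797, chr1:76461868-76462525, and chr3:158491922-158492329 also had STAT3 before transformation, and the one at chr5:52768074-52768443 did not. None of the 6 had NFKB1 in non-transformed cells.

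The 6 pairs at the other end had 38 to 79 NFKB1 reads and 4 or 5 STAT3 reads. All of them had NFKB1 in non-transformed cells, at 1.03 to 13.6 RPM, and none had STAT3 there. At chr7:92673095-92673308, 5 STAT3 and 79 NFKB1 reads gave a ratio of 0.068 (0.022 to 0.166), and NFKB1 was at 8.17 RPM in transformed and 13.6 RPM in non-transformed cells. The pair at chr7:134144862-134144980 had 5 and 76 reads (ratio 0.071, 0.022 to 0.173). FOS was present at all 6, at 0.860 to 2.49 RPM, and JUN and JUNB at 5 each. The other pairs of this group were at chr14:86972177-86972337, chr12:30179602-30179720, chr5:127259588-127259706, and chr12:88971367-88971530. All 6 intervals are those of the weak STAT3 peaks, not of the NFKB1 peaks. On chromosome 14 the NFKB1 summit, at 86972347, lay outside the interval, and at the others it lay inside.

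The 6 strongest pairs that were not found in all 10 lists had 96 to 120 STAT3 reads and 81 to 108 NFKB1 reads. They were picked for a high rank in both lists, so the rule fixes high levels of both proteins, and the values are a description. The pair at chr6:160136973-160138409 had 120 STAT3 and 90 NFKB1 reads (ratio 1.44, 1.09 to 1.91). At chr4:103332314-103333012 there were 106 and 97 reads, at chr5:66187214-66188147 there were 98 and 108, and at chr1:209865044-209865396 there were 96 and 108. NFKB1 was present before transformation at 5 of these 6 pairs, at 6.82 to 17.0 RPM, and STAT3 at 5 of 6, at 1.74 to 10.3 RPM. The exception for NFKB1 was chr5:122597149-122598247, with 105 STAT3 and 81 NFKB1 reads in transformed cells, where STAT3 was at 1.83 RPM in non-transformed cells. The first-ranked pair, at chr6:89744949-89746185, had summits within 300 bp of the STAT3 summit in 5 lists but overlapping intervals in all 10, and so did the pair on chromosome 6 given first, with summits in 9 lists. Of the 3 strongest pairs found in all 10 lists, the one at chr7:106065151-106066049 had 106 STAT3 and 98 NFKB1 reads, and the others, on chromosome 8, had 110 and 90 and 127 and 73 reads.

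Strong sites without the other protein were few. Of the 7885 STAT3 sites in the top 10%, 673 (8.54%, 7.94 to 9.17%) were STAT3-only, and of the 7286 strong NFKB1 sites 1040 (14.3%, 13.5 to 15.1%) were NFKB1-only. The peak intervals of both proteins still overlapped at 122 of these 673 and 142 of these 1040 sites. AP-1 was present at 92.7% (90.5 to 94.4%) of the strong STAT3-only and 86.7% (84.5 to 88.7%) of the strong NFKB1-only sites. STAT3 had been present before transformation at 67.5% (63.8 to 70.9%) of the former and 13.4% (11.4 to 15.6%) of the latter, and NFKB1 at 6.98% (5.29 to 9.16%) and 66.9% (64.0 to 69.7%). Over all NFKB1-only sites, weak ones included, prior STAT3 (10.4%) was slightly more frequent than prior NFKB1 (8.97%). Over all sites prior STAT3 was at 38.4% of the STAT3 and 36.6% of the NFKB1 list, and prior NFKB1 at 12.4 and 16.2%. The non-transformed lists held 42810 STAT3 and 13252 NFKB1 sites, so shares of prior STAT3 and prior NFKB1 are not on an equal footing.

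The strongest one-protein sites, with no summit of the other protein within 1000 bp, are given one by one. The 6 STAT3-only sites had 73 to 83 reads, and STAT3 was present in non-transformed cells at 5 of them (2.84 to 8.14 RPM) and NFKB1 at none. They were at chr17:80408557-80409607, chr17:17752446-17752800, chr18:35033005-35033342, chr1:6532129-6532420, chr4:38372957-38373634, and chr6:53178591-53178970. The site without prior STAT3 was that on chromosome 4, with STAT3 at 8.36 and FOS at 2.13 RPM in transformed cells. FOS was present at all 6 in transformed cells, at 0.408 to 2.13 RPM, and neither JUN nor JUNB had a summit at any of the 6 in non-transformed cells.

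The 6 NFKB1-only sites had 68 to 81 reads, and all had NFKB1 in non-transformed cells, at 5.58 to 19.6 RPM. They were at chr4:153329762-153330088, chr22:24976269-24976662, chr6:58776480-58779198, chr4:103446269-103446693, chr1:209886375-209886653, and chr1:52029784-52030393. The third of these is an NFKB1-only site by its summit alone. Its interval of 2719 bp overlapped intervals in all 10 lists, that of STAT3 included, and its pileups reached 12.6 RPM for STAT3 and 19.6 RPM for NFKB1 in non-transformed cells. Of the other 5, the site on chromosome 22 had STAT3 in non-transformed cells, at 0.823 RPM. FOS and JUN were present at all 6 sites in both conditions.

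**Figure D5:**
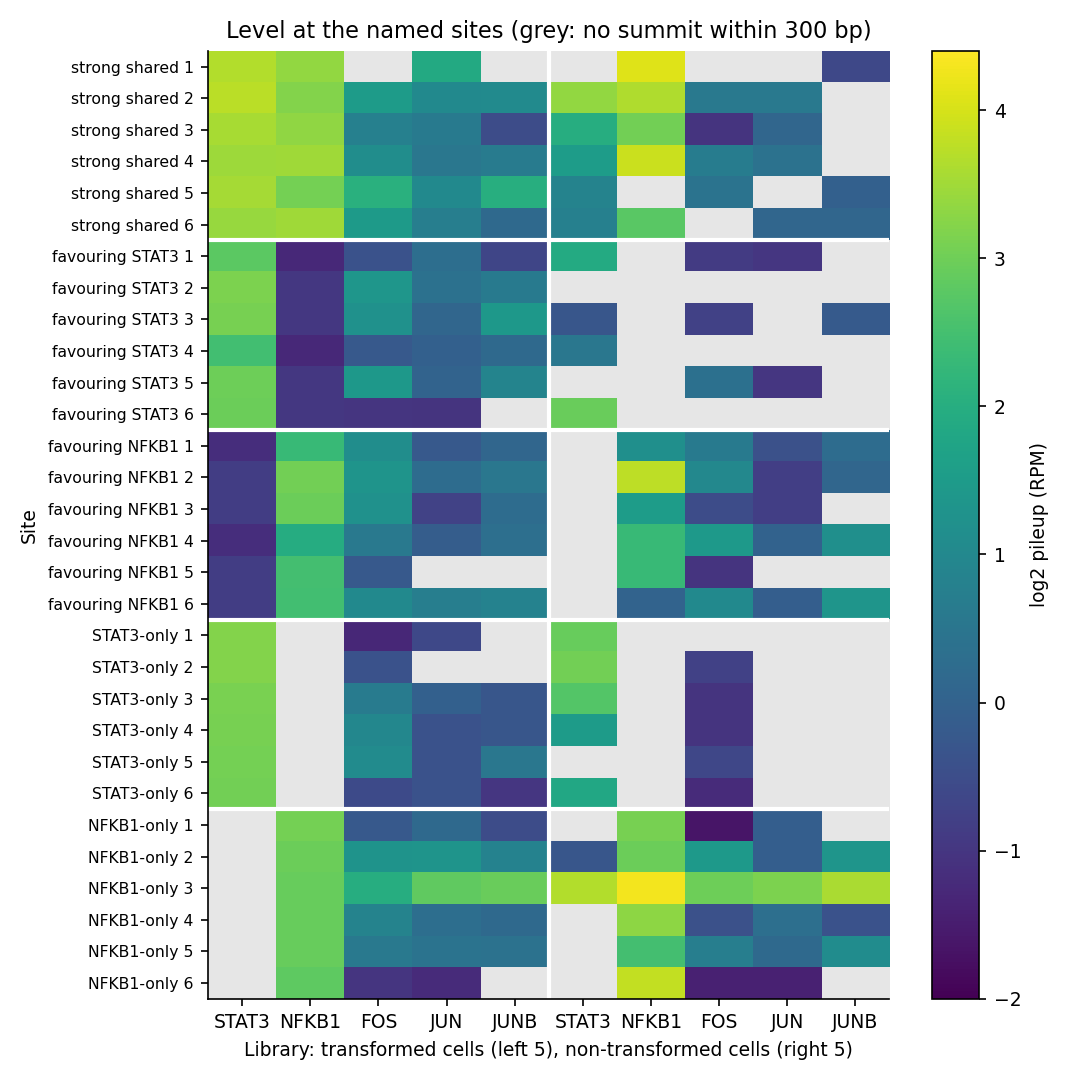
Level at 30 named sites (rows, 6 of each kind in the order of rank) in the 10 libraries (columns), as log2 RPM, with grey where no summit lay within 300 bp. Pairs favouring NFKB1 and NFKB1-only sites carry NFKB1 in non-transformed cells in every row, and pairs favouring STAT3 and STAT3-only sites carry it in none.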

How the data were processed

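Only peak lists were analysed. The authors aligned reads of 36 bp and called peaks per library with MACS version 2.0.10.20131216 and no control library, at a q-value cutoff of 0.05, with at most 1 read per position. Bowtie and build hg19 are named in the submitters' processing notes. The deposited pileup is the signal at the summit in extended reads, not scaled for depth. The authors also deposited the −log10 p-value and −log10 q-value of each peak and its fold enrichment, a ratio to the background. The window set for the regional background was 1000000 bp. A genome or annotation of hg19 was not used here, so sites are given by position, without genes, motifs or sequences, and the parts of the plan that need them were not run.

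The titles gave each sample's protein and condition. Summits were matched within 300 bp, pairs were mutual nearest summits, and percentiles used mean ranks of tied pileups. AP-1 is the union of the FOS, JUN, and JUNB lists. Shares have Wilson intervals, medians order-statistic intervals, and ratios of reads exact binomial intervals, all at 95% and covering counting error only. Without replicates no test was made. The matching code was run on simulated data of 20000 sites in 3 sets. The largest error was 0 percentage points for the recovered share and 0.014 for the correlation. Simulated sites were widely spaced, with partners within the limit and all others well beyond it. The share error of 0 was thus fixed by the layout, and matching in dense lists was not tested. Python 3.11.15, numpy 2.4.6, pandas 2.3.3, scipy 1.17.1, and statsmodels 0.14.6 were used.

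The 33 named sites followed a rule: the 6 pairs with the smallest sum of ranks and the 3 of that kind found in all 10 lists, the 6 pairs with the largest percentile difference each way, and the 6 strongest sites of each protein with no summit of the other within 1000 bp. The question, the distance, and the rule were chosen with earlier results of these data known. Alternatives were distances of 150 and 1000 bp, a stricter threshold, the 20000 strongest peaks of each list, leaving out positions found in all 10 lists, other measures of strength, and nearest pairs. Peaks on other chromosomes were left out.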

Additional observations from a re-analysis of the deposited data

Results flagged for a closer look

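Peaks outside chromosomes 1 to 22 and X entered no comparison and are given here as a description of unused data. There were 50 such STAT3 peaks and 48 such NFKB1 peaks in transformed cells, and 34 of the 50 STAT3 peaks (68.0%) had an NFKB1 summit within 300 bp. On chromosomes 1 to 22 and X the share was 57.1%. With so few peaks the difference is no result about them, and it was not tested.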

How the results depend on the processing

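No paired analysis was possible because each protein had 1 library per condition, so no replicate could be left out either. Of 53 values recomputed under other settings 35 moved beyond the interval of the value, or a count by over 1.5 times. With 150 bp between summits, 53.1% of STAT3 and 57.7% of NFKB1 sites were shared, the median distance was 28 bp, and AP-1 was at 96.4% of shared, 70.6% of STAT3-only and 63.8% of NFKB1-only sites. With 1000 bp these values were 64.8%, 68.6%, 31 bp, 98.8%, 80.1% and 71.4%. With only peaks of −log10 q at or above 8.13, 43.5% of STAT3 and 66.0% of NFKB1 sites were shared, the correlation was 0.262, the distance 25 bp, AP-1 was at 97.1% of shared and 76.9% of STAT3-only sites, and 989 pairs favoured STAT3 and 601 NFKB1, the opposite order to 952 and 959. With the 20000 strongest peaks of each list both shares were 45.4%, the correlation was 0.129, the distance 25 bp, AP-1 was at 78.9% of shared, 36.2% of STAT3-only and 39.2% of NFKB1-only sites, and 493 and 421 pairs favoured STAT3 and NFKB1. Both settings shorten the lists being matched, so partners are lost, and with the 20000 strongest peaks STAT3-only sites had AP-1 less often than NFKB1-only sites. Cutting only the query list, chosen after seeing the data, gave 82.3% of STAT3 and 82.1% of NFKB1 sites shared. Without positions found in all 10 lists, 53.9% and 59.0% were shared, the correlation was 0.316, and 97.3% of shared sites had AP-1. The Spearman correlation was 0.373 with fold enrichment and 0.375 with −log10 q in place of pileup, and nearest pairs had a median distance of 31 bp. The shares with a prior peak were recomputed under 4 alternatives chosen after seeing the data. Without positions found in all 10 lists, prior NFKB1 was at 1.25% of pairs favouring STAT3 and 63.7% of those favouring NFKB1, and prior STAT3 at 14.6% of the latter. The other 13 values moved within their intervals. Why the moved values changed was otherwise not tested. A stricter or shallower list cannot show weak partners, and the 4837474 reads for NFKB1 before transformation limit what prior binding could be seen.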

Other observations

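The balance of the proteins varied modestly among chromosomes. For every 100 STAT3 sites there were 80.7 NFKB1 sites on chromosome 20, the lowest, and 97.6 on chromosome 4, the highest. The share of STAT3 sites with NFKB1 went from 48.9% on chromosome X to 58.9% on chromosome 12, and the share of NFKB1 sites with STAT3 from 56.8% on chromosome X to 68.1% on chromosome 20. Chromosome X was thus lowest in both shares. Copy number of the line was not examined, and these values have no replicate check.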
